A study of Mus musculus with 6 samples.

Results

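GABA-A receptors are chloride channels of neurons, and the 7 subunit genes described here encode 4 alpha subunits (Gabra2, Gabra3, Gabra4 and Gabra5), 2 beta subunits (Gabrb1 and Gabrb2) and the delta subunit (Gabrd). They were taken by gene symbol from a table of 31838 genes that gives an estimated count and an FPKM value (fragments per kilobase of transcript, scaled to the size of the library) for each of 6 hippocampal RNA libraries, and all 7 were found there. The BBP group held 3 libraries from wild-type C57BL/6 mice given butyl benzyl phthalate, a plasticiser, at 50 mg/kg/day, and the corn oil group held 3 libraries from wild-type C57BL/6 mice given corn oil. The mice of both groups were 4 months old. The series title concerns cognitive impairment after BBP, and the question here is which subunit transcripts differed between treated and control hippocampus. The labels do not tie each library to its own animal, so the p-values below describe the spread between libraries.

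A GABA-A receptor is a ring of subunits around a chloride pore. GABA binds where a beta subunit meets an alpha subunit, and the alpha subunit together with a gamma or delta partner sets where the receptor sits and how it responds. Receptors with Gabra2 or Gabra3 subunits and a gamma subunit gather mainly at synapses, where they carry brief inhibitory currents. Receptors with the Gabrd subunit, often paired with Gabra4 in dentate granule neurons and thalamus, and many receptors with the Gabra5 subunit in hippocampal pyramidal neurons lie outside synapses and carry tonic inhibition. Beta subunits take part in receptors of both places.

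RefSeq promoter windows of build GRCm38.p6 were matched by symbol for 6 of the 7 members (Gabrd is named only). The windows printed here cover up to 250 bases before an annotated start, without annotated exons, for the 3 members that were lowest together in BBP library 1 (Gabra2, Gabra5 and Gabrb1) and for Gabra3, which was highest there. Each is written 5′ to 3′ on the strand of the gene. Capitals mark matches on either strand to any of 6 motifs, none of which overlapped. They were the TATA box, searched with the letters TATAAA, and the GC box of SP-family factors, with the letters GGGCGG. The cyclic AMP response element was searched as TGACGTCA, the core of the NRF1 element as CGCATGCG, the E box of helix-loop-helix factors as CACGTG and the EGR element as GCGGGGGCG.
Gabra2, chr5:71095850-71096099, minus strand: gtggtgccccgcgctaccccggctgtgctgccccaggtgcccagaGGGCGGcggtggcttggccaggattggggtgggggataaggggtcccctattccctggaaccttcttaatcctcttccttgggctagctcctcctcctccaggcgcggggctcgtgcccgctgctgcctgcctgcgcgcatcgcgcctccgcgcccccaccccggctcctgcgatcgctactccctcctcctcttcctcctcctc
Gabra5, chr7:57510060-57510309, minus strand: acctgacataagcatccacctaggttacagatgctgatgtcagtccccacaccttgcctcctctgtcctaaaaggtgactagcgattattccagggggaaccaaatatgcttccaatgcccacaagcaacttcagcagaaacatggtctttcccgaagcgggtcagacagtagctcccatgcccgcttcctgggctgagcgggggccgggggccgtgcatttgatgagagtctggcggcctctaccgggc
Gabrb1, chr5:71699825-71699931, plus strand: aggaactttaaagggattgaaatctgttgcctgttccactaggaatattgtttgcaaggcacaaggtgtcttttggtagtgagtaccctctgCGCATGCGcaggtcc
Gabra3, chrX:72656920-72657169, minus strand: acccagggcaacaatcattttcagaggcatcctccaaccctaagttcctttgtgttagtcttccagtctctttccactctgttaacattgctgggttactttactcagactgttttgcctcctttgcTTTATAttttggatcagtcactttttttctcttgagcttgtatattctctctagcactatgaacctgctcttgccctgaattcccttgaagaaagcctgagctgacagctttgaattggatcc

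The 3 members that were low together were chosen by those values, and their windows held no motif of this set in common. The windows had unlike lengths, 250 bases for Gabra2 and Gabra5 but 107 and 53 bases for Gabrb1. A GC box is found in 5.28% of all windows in the 53-base stretch, so a shared motif was unlikely from the start. No conclusion about the 3 genes is drawn from this. The Gabra2 window held 1 GC box, which 32.7% of all 32851 promoter windows hold, with 18 CpG sites and a GC content of 70.0%. The Gabra5 window held none of the motifs, with 9 CpG sites and a GC content of 56.4%. The 107-base Gabrb1 window held 1 NRF1 core, which 1.06% of windows hold in the same stretch. It precedes the downstream start of Gabrb1 at 71699932, and the 53-base window before the upstream start at 71657921 held none of the motifs. The Gabra3 window held 1 TATA box, present in 12.4% of windows, no CpG site and a GC content of 42.4%, against a median of 6 CpG sites and 52.4% over all windows. A match describes the letters of the window and is not evidence of binding.

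The libraries held 62477604 to 68422361 estimated counts over genes. Markers of dentate granule, CA1 and CA2 and CA3 neurons were detected in every library, which are the defining markers of the labelled tissue, but BBP library 1 stood apart in regional markers. All 12 striatal markers had their highest FPKM of the 6 libraries in BBP library 1. Their summed level was 234 FPKM there, and BBP libraries 2 and 3 had 79.7 and 75.2 FPKM, against 75.9 to 121 FPKM in corn oil. The 8 isocortex markers were split, with 6 highest and 2 (Tshz2 and Fezf2) lowest in BBP library 1. Lamp5 alone had 64.5 FPKM of their sum there. That sum was 125 FPKM in BBP library 1, with 59.8 to 62.9 FPKM in BBP libraries 2 and 3, against 54.5 to 63.1 FPKM in corn oil. All 8 CA2 and CA3 markers were lowest in BBP library 1, with a sum of 44.1 FPKM there and 73.4 to 85.9 FPKM in BBP libraries 2 and 3, against 70.5 to 94.1 FPKM in corn oil. Of 8 dentate granule markers, 6 were lowest in BBP library 1, with a sum of 44.0 FPKM there and 77.2 to 77.4 FPKM in BBP libraries 2 and 3, against 60.3 to 76.8 FPKM in corn oil. Of 5 CA1 markers, 3 were lowest in BBP library 1, with a sum of 102 FPKM there and 130 to 151 FPKM in BBP libraries 2 and 3, against 128 to 146 FPKM in corn oil. Corn oil library 3 was the control library with the most striatal and the least hippocampal field marker RNA. BBP library 2 stood apart in other measures. Mitochondrial genes took 11.5% of its counts, and 7.17% to 7.79% in BBP libraries 1 and 3, against 7.11% to 8.57% in corn oil. It was the lowest of the 6 libraries for 36.4% of tested genes. All markers of these 5 lists were above 0 in every library. The 8 choroid plexus markers, most of whose level is Ttr, summed to 50.4 to 63.6 FPKM in BBP against 86.6 to 375 FPKM in corn oil, the highest in corn oil library 3. Ttr alone had 44.5 to 58.5 FPKM in BBP against 81.4 to 366 FPKM in corn oil. The groups did not overlap for Kcnj13 either, but they overlapped for Kl, Folr1, Clic6, Sostdc1, Otx2 and Aqp1. Of all tested genes, 9.65% had groups that did not overlap, 5.25% with BBP below. The 10 oligodendrocyte markers summed to 908, 935 and 643 FPKM in BBP libraries 1 to 3, against 576, 794 and 599 FPKM in corn oil libraries 1 to 3. In bulk tissue, fewer cells of a type and less RNA per cell cannot be told apart, and the part of these marker and library differences in the subunit values below was not tested.

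Gabra5 was the most abundant of the 7 transcripts and Gabrb2 the least. Over the 6 libraries Gabra5 averaged 51.9 ± 14.1 FPKM (SD, n = 6) and Gabra3 20.3 ± 4.69 FPKM, and the ranges of these neighbours did not overlap. Gabra4 followed at 13.6 ± 1.60 FPKM, Gabrd at 10.6 ± 4.96 FPKM, Gabrb1 at 9.27 ± 1.61 FPKM and Gabra2 at 8.21 ± 1.16 FPKM. From Gabra3 down to Gabra2 each neighbour in this order overlapped the next in range, while the ranges of Gabra3 and Gabra4 both lay above those of Gabrb1 and Gabra2. The lowest Gabra4 value and the highest Gabrb1 value were both 10.7 FPKM after rounding. Within the corn oil libraries alone, Gabra3 lay above Gabra4 and Gabra4 above Gabrd without overlap. Gabrb2, at 3.61 ± 0.738 FPKM, lay below the range of Gabra2. The same order was found when estimated counts were divided by the exon length of each gene in GENCODE M21.

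**Figure D1:**
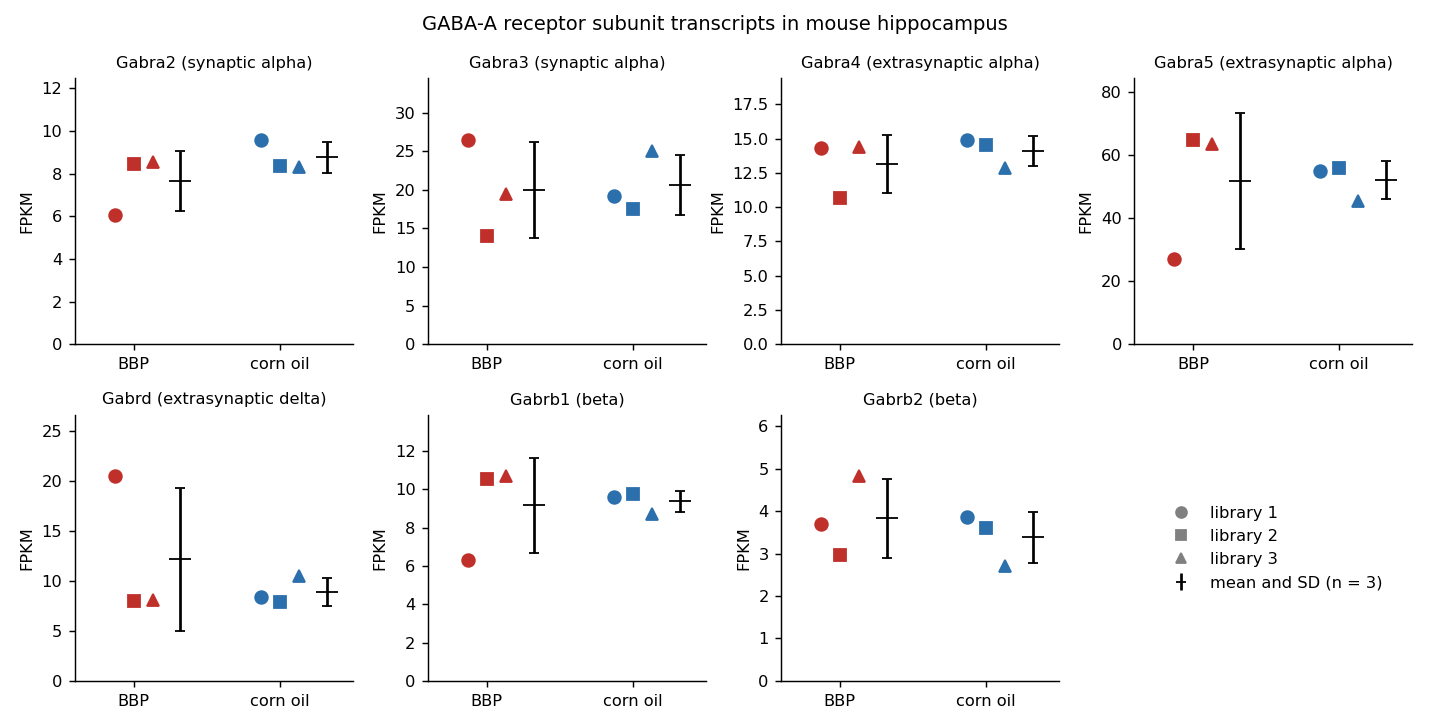
FPKM of the 7 subunit genes by library, BBP left of corn oil, each axis from 0. Symbols give the library number, and the bar beside each group gives its mean and SD (n = 3 each). Gabrd had 20.5 FPKM in BBP library 1 and at most 10.5 FPKM in the other libraries, while Gabra5 had 27.0 FPKM in BBP library 1 and at least 45.3 FPKM in the others.

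Among the extrasynaptic subunits, Gabrd had 20.5, 8.02 and 8.11 FPKM in BBP libraries 1 to 3, against 8.37, 7.92 and 10.5 FPKM in corn oil libraries 1 to 3. BBP library 1 alone was high, and BBP libraries 2 and 3 lay within the corn oil range. Gabrd (chromosome 4, 155384980 to 155398112, minus strand, mm10) averaged 12.2 ± 7.17 FPKM in BBP and 8.94 ± 1.40 FPKM in corn oil (SD, n = 3 each). Its log2 fold change was 0.46 ± 0.34 (SE, edgeR adjusted p = 0.953), and without BBP library 1 it was -0.11 ± 0.14 (adjusted p = 0.852). BBP library 1 thus decided the direction of the group difference. On the log2(FPKM + 1) scale in limma the difference was 0.29.

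Gabra5 had 27.0, 64.9 and 63.4 FPKM in BBP libraries 1 to 3, against 55.0, 55.9 and 45.3 FPKM in corn oil libraries 1 to 3. The BBP libraries lay on both sides of the corn oil range, library 1 below it and libraries 2 and 3 above it. Gabra5 (chromosome 7, 57407672 to 57510009, minus strand) averaged 51.8 ± 21.5 FPKM in BBP and 52.1 ± 5.89 FPKM in corn oil. Its log2 fold change was 0.02 ± 0.30 (edgeR adjusted p = 0.997). Without BBP library 1 it was 0.34 ± 0.11, with an unadjusted p of 0.0178 and an adjusted p of 0.700 in edgeR, and it was negative without BBP library 2, BBP library 3 or corn oil library 3 (down to -0.22) and in limma on log2(FPKM + 1), at -0.10. In the edgeR fit without BBP library 1, 7.00% of 21072 genes had an unadjusted p under 0.05 and 3 genes passed the adjusted threshold, none of them a subunit gene.

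Gabra4, the usual alpha partner of Gabrd in the dentate gyrus, had 14.3, 10.7 and 14.4 FPKM in BBP libraries 1 to 3, against 14.9, 14.5 and 12.9 FPKM in corn oil libraries 1 to 3. The groups overlapped, and the low value belonged to BBP library 2 rather than to library 1. BBP library 2 was the lowest for 36.4% of all tested genes and had the largest mitochondrial share. The part of either in the Gabra4 value was not tested. Gabra4 (chromosome 5, 71569749 to 71658308, minus strand) averaged 13.1 ± 2.13 FPKM in BBP and 14.1 ± 1.08 FPKM in corn oil. Its log2 fold change was -0.09 ± 0.11 (edgeR adjusted p = 0.954), and 0.010 without BBP library 2. The ratio of Gabra4 to Gabrd was 0.700, 1.33 and 1.77 in BBP libraries 1 to 3, against 1.78, 1.83 and 1.22 in corn oil libraries 1 to 3.

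Of the synaptic alpha subunits, Gabra3 had 26.5, 14.0 and 19.5 FPKM in BBP libraries 1 to 3, against 19.2, 17.6 and 25.0 FPKM in corn oil libraries 1 to 3. Its highest and lowest libraries were BBP libraries 1 and 2, and corn oil library 3 came close to the highest. Gabra3 (chromosome X, 72432681 to 72656848, minus strand) averaged 20.0 ± 6.27 FPKM in BBP and 20.6 ± 3.92 FPKM in corn oil, with a log2 fold change of -0.03 ± 0.21 (edgeR adjusted p = 0.994). Without BBP library 1 the log2 fold change was -0.27 ± 0.16 (adjusted p = 0.735), and without BBP library 2 it was 0.14 (adjusted p = 0.981). It was also positive without BBP library 3, at 0.0069, and without corn oil library 3, at 0.13.

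Gabra2, the other synaptic alpha subunit, had 6.05, 8.43 and 8.52 FPKM in BBP libraries 1 to 3, against 9.58, 8.36 and 8.33 FPKM in corn oil libraries 1 to 3. BBP library 1 was low, and BBP libraries 2 and 3 lay within the corn oil range. Gabra2 (chromosome 5, 70957597 to 71095849, minus strand) averaged 7.67 ± 1.40 FPKM in BBP and 8.75 ± 0.715 FPKM in corn oil. Its log2 fold change was -0.16 ± 0.15 (edgeR adjusted p = 0.953), and it was -0.0084 ± 0.097 without BBP library 1.

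Of the beta subunits, Gabrb1 had 6.30, 10.5 and 10.7 FPKM in BBP libraries 1 to 3, against 9.62, 9.77 and 8.72 FPKM in corn oil libraries 1 to 3. As for Gabra5, BBP library 1 lay below the corn oil range and BBP libraries 2 and 3 above it. Gabrb1 (chromosome 5, 71658113 to 72149037, plus strand) averaged 9.17 ± 2.48 FPKM in BBP and 9.37 ± 0.567 FPKM in corn oil, with a log2 fold change of -0.0041 ± 0.20 (edgeR adjusted p = 0.999). Without BBP library 1 the log2 fold change was 0.22 ± 0.090, with an unadjusted p of 0.0434 and an adjusted p of 0.700 in edgeR. It was also positive without corn oil library 1, at 0.018, and without corn oil library 2, at 0.029. Gabrb1 and Gabra4 lie head to head on opposite strands, with 196 bases of gene span and 46 exonic bases in common. Gabra3, Gabra5 and Gabrb1 also overlap other annotated genes on the opposite strand, and Gabrb1 overlaps the processed pseudogene Gm15616 on its own strand over 375 bases. Whether counting used strand is not given in the sources used here. It is therefore not known whether fragments from bases shared by genes on opposite strands were assigned by strand. Strand cannot separate fragments from the bases that Gabrb1 shares with Gm15616.

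Gabrb2, the beta subunit on chromosome 11 (42419757 to 42629028, plus strand), had 3.69, 2.98 and 4.82 FPKM in BBP libraries 1 to 3, against 3.86, 3.59 and 2.71 FPKM in corn oil libraries 1 to 3. BBP library 3 was the highest, BBP library 1 lay inside the corn oil range, and the groups overlapped. The log2 fold change was 0.19 ± 0.18 (edgeR adjusted p = 0.953). It was 0.017 without BBP library 3, 0.051 without corn oil library 3 and 0.31 without BBP library 2. The ratio of Gabrb1 to Gabrb2 was 1.71, 3.53 and 2.22 in BBP libraries 1 to 3, against 2.49, 2.72 and 3.21 in corn oil libraries 1 to 3.

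Over 20428 genes tested, edgeR called 0 genes, or 0%, at an adjusted p under 0.05, and so 0 of the 7 members. At an unadjusted p under 0.05 there were 0 members, against 685 genes or 3.35% of all tested (1.98% higher and 1.37% lower in BBP), and DESeq2 called 3 genes, none of them a member. The BBP and corn oil values overlapped for all 7 members, while 9.65% of tested genes had groups that did not overlap (4.4% with BBP above and 5.25% with BBP below). The log2 fold change was positive for 3 members and negative for 4, with a median of -0.0041 against 0.01 over all tested genes. The 95% intervals of the fits limit the group difference in ratio to 0.789 to 1.12 for Gabra4 and 0.703 to 1.13 for Gabra2. They run from 0.627 to 1.64 for Gabra5 and from 0.805 to 2.36 for Gabrd, which leaves a more than 2-fold higher level of Gabrd within the interval.

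**Figure D2:**
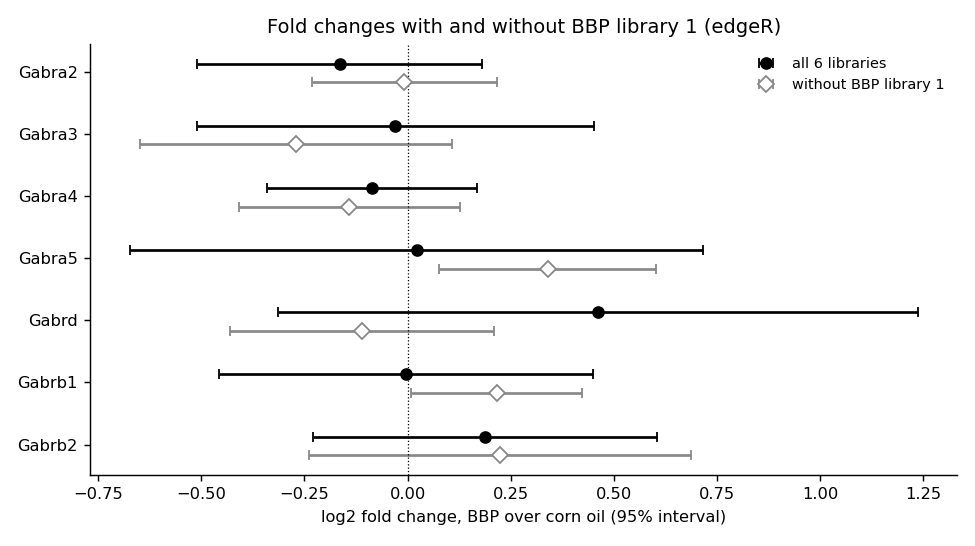
Log2 fold change of BBP over corn oil for the 7 subunit genes from edgeR, with 95% intervals. Filled circles use all 6 libraries and open diamonds leave out BBP library 1. Gabrd is at 0.46 with all libraries and at -0.11 without BBP library 1, and Gabra5 is at 0.02 and 0.34.

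The subunits differed in how far they varied between libraries. On the log2(FPKM + 1) scale the SD over the 6 libraries was 0.50 for Gabrd, 0.46 for Gabra5 and 0.32 for Gabra3, against a median of 0.13 over 11734 annotated genes with a mean of at least 1 FPKM. It was 0.25 for Gabrb1, 0.23 for Gabrb2, 0.20 for Gabra2 and 0.17 for Gabra4. Without BBP library 1 the SD was 0.16 for Gabrd and 0.20 for Gabra5, but 0.29 for Gabra3 and 0.25 for Gabrb2. BBP library 1 was the highest of the 6 for 2 of 7 members and the lowest for 3, while it was the highest for 24.3% and the lowest for 17.9% of all tested genes. BBP library 2 was the lowest for 2 members, Gabra3 and Gabra4, and the highest for 1, Gabra5. Of all tested genes it was the lowest for 36.4% and the highest for 16.2%.

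Relative to the corn oil mean on the log2 CPM scale (counts scaled to library size), Gabrd stood at 1.20 in BBP library 1, where the median of striatal markers was 1.52 and that of isocortex markers 1.14. Gabra5 stood at -0.95, Gabrb1 at -0.58 and Gabra2 at -0.54 in the same library, where the medians were -0.95 for dentate granule, -0.86 for CA1 and -0.93 for CA2 and CA3 markers. Gabrd is a dentate granule subunit by its known role, yet in BBP library 1 its value and the dentate marker median had opposite signs. In corn oil library 3 the deviations were 0.24 for Gabrd, -0.20 for Gabra5, -0.11 for Gabrb1 and -0.08 for Gabra2. These had the same signs as in BBP library 1 and were smaller, as was Gabra3, at 0.29 against 0.37. Gabrb2 and Gabra4 went the other way, from 0.13 and 0.02 in BBP library 1 to -0.31 and -0.13 in corn oil library 3. The medians in corn oil library 3 were 0.36 for striatal and -0.43 for dentate granule markers. Thalamus markers had a median of -0.04 and interneuron markers one of 0.09 in BBP library 1, but their members went both ways. Of 10 interneuron markers, 5 were highest there, among them Pvalb at 1.62 times and Npy at 1.60 times the corn oil mean, and 2 were lowest, Dlx1 at 0.904 times and Dlx2 at 0.706 times. Of 6 thalamus markers, 1 was highest and 1 lowest there.

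**Figure D3:**
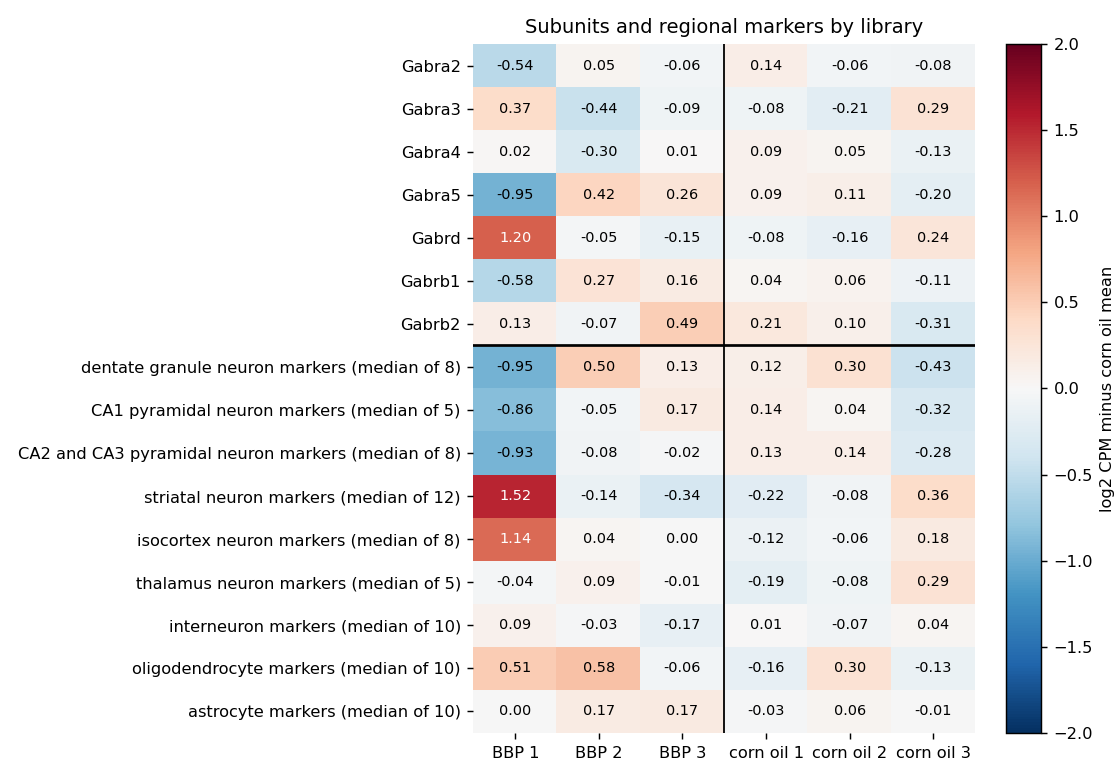
Log2 CPM minus the corn oil mean for the 7 subunit genes (upper rows) and the median of each marker list (lower rows), in the 3 BBP libraries left of the 3 corn oil libraries. Red is above and blue below the corn oil mean. In BBP library 1, Gabrd (1.20) has the sign of the striatal and isocortex medians, and Gabra5 (-0.95) that of the hippocampal field medians.

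Synaptic and extrasynaptic subunits were set against each other within each library, as the mean log2(FPKM + 1) of Gabra2 and Gabra3 minus that of Gabra4, Gabra5 and Gabrd. This difference was -0.59, -0.68 and -0.58 in BBP libraries 1 to 3, against -0.47, -0.59 and -0.32 in corn oil libraries 1 to 3. It averaged -0.62 ± 0.06 in BBP and -0.46 ± 0.14 in corn oil (SD, n = 3 each), a group difference of -0.15 that is given without a test. Corn oil library 2, at -0.59, lay inside the BBP range, and without corn oil library 3 the group difference was -0.08. In BBP library 1 the mean hides opposite values within the extrasynaptic set, since Gabrd was high and Gabra5 low there. The summed extrasynaptic level was 61.8, 83.6 and 85.9 FPKM in BBP libraries 1 to 3, against 78.3, 78.4 and 68.7 FPKM in corn oil libraries 1 to 3. The summed level of the synaptic alpha subunits was 32.6, 22.4 and 28.0 FPKM in BBP libraries 1 to 3, against 28.8, 25.9 and 33.4 FPKM in corn oil libraries 1 to 3.

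The mix of the 4 alpha transcripts was most unlike the others in BBP library 1. Of their summed FPKM, Gabra5 took 36.6%, 66.2% and 59.9% in BBP libraries 1 to 3, against 55.7%, 58.0% and 49.5% in corn oil libraries 1 to 3. Gabra3 took 35.9%, 14.3% and 18.4% in BBP libraries 1 to 3, against 19.5%, 18.2% and 27.3% in corn oil libraries 1 to 3. BBP library 1 was the library in which Gabra3 and Gabra5 had nearly equal shares. Gabra4 took 10.9% to 19.4% in BBP and 14.1% to 15.1% in corn oil. Gabra2 took 8.05% to 8.61% in BBP and 8.67% to 9.70% in corn oil, a gap smaller than the spread within either group and given without a test; 9.65% of tested genes had FPKM that did not overlap between groups. The ratio of Gabra5 to Gabrd, both extrasynaptic, was 1.32, 8.09 and 7.82 in BBP libraries 1 to 3, against 6.58, 7.06 and 4.30 in corn oil libraries 1 to 3.

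**Figure D4:**
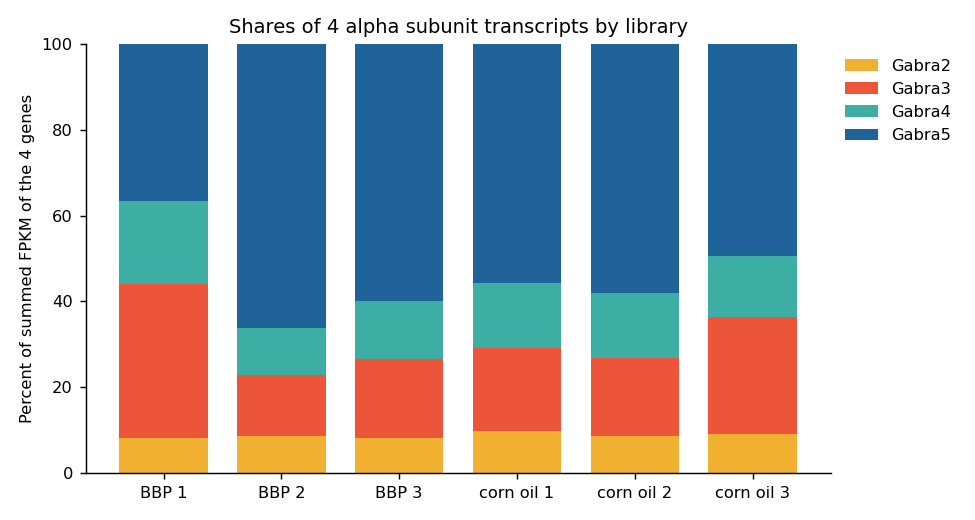
Percent of the summed FPKM of Gabra2, Gabra3, Gabra4 and Gabra5 taken by each gene, 1 bar per library, BBP left of corn oil. Gabra5 takes 36.6% in BBP library 1, and the 5 remaining bars lie between 49.5% and 66.2%.

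The profiles over the 6 libraries were compared as the root mean square difference between log2(FPKM + 1) values centred on each gene's mean. Among the members, Gabra2 and Gabrb1 were nearest to each other, at 0.12, followed by Gabra4 and Gabrb2 at 0.16 and Gabra5 and Gabrb1 at 0.19. Gabra5 and Gabrd were farthest apart, at 0.87. Over the other annotated genes with a mean of at least 1 FPKM, the nearest to Gabrd were Garnl3 at 0.063, Camk2n1, an inhibitor of the kinase CaMKII, at 0.065 and Pdp1, a pyruvate dehydrogenase phosphatase, at 0.075. Camk2n1 had 312, 124 and 136 FPKM in BBP libraries 1 to 3, against 138, 135 and 184 FPKM in corn oil libraries 1 to 3. The nearest to Gabra5 were Tspan18, a tetraspanin gene, at 0.075, Tanc1, a postsynaptic scaffold gene, at 0.078 and Gria1, an AMPA receptor subunit gene, at 0.081. Gria1 had 65.7, 134 and 130 FPKM in BBP libraries 1 to 3, against 128, 124 and 99.7 FPKM in corn oil libraries 1 to 3. These profiles rest on 6 libraries, and BBP library 1 was the extreme one for Gabrd, Gabra5 and all 6 of these neighbours.

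**Figure D5:**
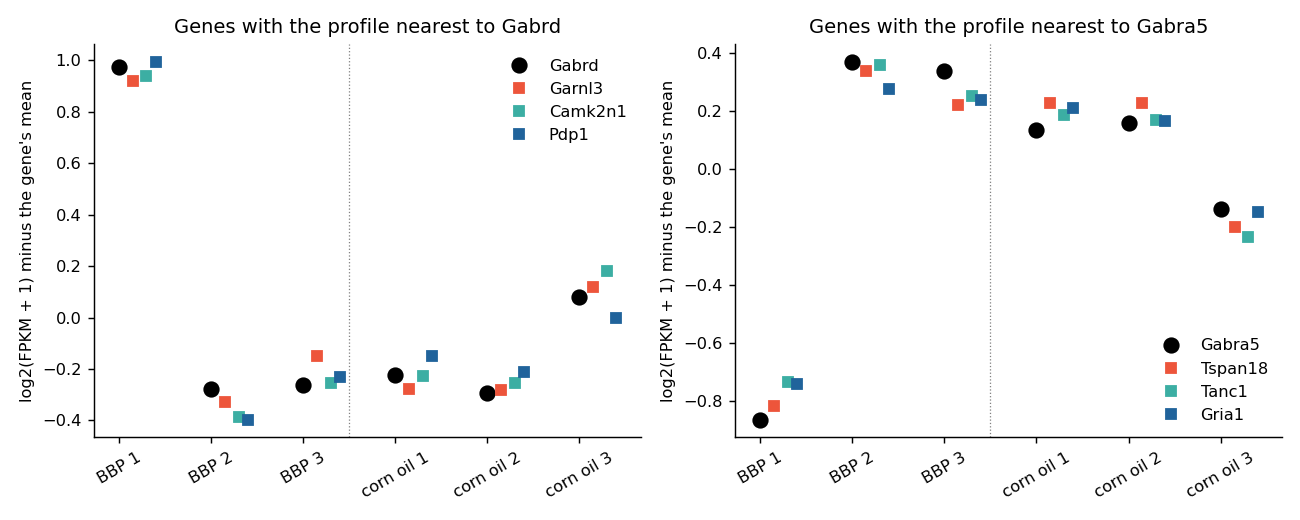
Log2(FPKM + 1) minus each gene's mean over the 6 libraries, for Gabrd (left) and Gabra5 (right, black circles) and the 3 genes nearest to each (squares), BBP libraries left of the dotted line and corn oil libraries right of it. BBP library 1 is the highest library for Gabrd and its neighbours and the lowest for Gabra5 and its neighbours.

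Other genes of GABA-A signalling were taken from fixed lists. The table held 11 further GABA-A subunit genes, of which 8 had counts high enough for the test. Of these 8, 0 passed the adjusted threshold in either direction, beside 0 of all 20428 tested genes. They had 3 positive and 5 negative log2 fold changes, with a median of -0.08. Gabrg1, a gamma subunit, averaged 2.12 ± 0.354 FPKM in BBP and 2.37 ± 0.258 FPKM in corn oil, and Gabrg3, another gamma subunit, averaged 1.40 ± 0.0779 FPKM in BBP and 1.37 ± 0.0270 FPKM in corn oil (SD, n = 3 each). Gabrq, the theta subunit, had 0.166, 0.173 and 0.0980 FPKM in BBP libraries 1 to 3, against 0.126, 0.144 and 0.616 FPKM in corn oil libraries 1 to 3. Its log2 fold change of -0.98 ± 0.62 (edgeR adjusted p = 0.953) rested on corn oil library 3, and was 0.13 without it. That library was the highest in choroid plexus markers and in thalamus markers, whose sum was 14.7 FPKM there. It was also the control library with the most striatal marker RNA, and the part of these traits in Gabrq was not tested.

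Of 13 genes for proteins of the inhibitory postsynapse, 0 passed the adjusted threshold, beside 0 of all 20428 tested genes. Of the 13, 8 were positive and 5 negative, with a median log2 fold change of 0.05. Insyn1, a partner of the inhibitory scaffold, had 51.9, 42.7 and 54.9 FPKM in BBP libraries 1 to 3, against 57.0, 57.5 and 56.6 FPKM in corn oil libraries 1 to 3. All 3 BBP values lay below the corn oil values, as for 5.25% of tested genes, with a log2 fold change of -0.18 ± 0.087 (edgeR adjusted p = 0.953), and -0.11 without BBP library 2. Lhfpl4, a transmembrane partner that holds receptors at synapses, had a log2 fold change of -0.18 ± 0.12, and -0.061 without BBP library 2.

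Of 13 genes for receptor trafficking, 0 passed the adjusted threshold, beside 0 of all 20428 tested genes. Of the 13, 8 were positive and 5 negative, with a median of 0.05. Hap1, which takes part in receptor recycling, had 30.7, 33.3 and 51.2 FPKM in BBP libraries 1 to 3, against 51.1, 46.5 and 66.0 FPKM in corn oil libraries 1 to 3. The groups overlapped through BBP library 3, and the log2 fold change was -0.49 ± 0.20 (edgeR unadjusted p = 0.0376, adjusted p = 0.953). An unadjusted p under 0.05 was found for 3.35% of tested genes. Without single libraries the value of Hap1 ranged from -0.72 (edgeR unadjusted p = 0.00339, without BBP library 3) to -0.33 (edgeR unadjusted p = 0.151, without corn oil library 3). The edgeR adjusted p of Hap1 was 0.624 without BBP library 3 and 0.999 without corn oil library 3. The fit without BBP library 3 left out the library through which the groups overlapped. In that fit 1530 of 21088 genes had an unadjusted p under 0.05. Plcl2, of a family that binds beta subunits, had a log2 fold change of 0.22 ± 0.12, and 0.076 without BBP library 1. The chloride importer gene Slc12a2 and the chloride exporter gene Slc12a5, which set the direction of GABA currents, had log2 fold changes of 0.12 ± 0.11 and -0.03 ± 0.10, and neither passed (edgeR adjusted p = 0.953 and 0.987). Without BBP library 2 the value of Slc12a5 was 0.064, and without BBP library 1 that of Slc12a2 was 0.025.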

How the data were processed

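Polyadenylated RNA of mouse hippocampus was sequenced in 6 libraries, 3 of the BBP group and 3 of the corn oil group, with strand-marking paired-end libraries that carry molecular identifiers, per the labels' protocols. The submitters' processing notes list, with no role or order, the build mm10 and the tools StringTie 2.1.6, HISAT2 2.2.1, cutadapt 1.9, edgeR, DESeq2 and UMI-tools. Per the file headers, the deposited table holds estimated counts and FPKM per gene. The deposited counts are whole numbers and more genes have 4 than 3 or 5, so 1 fragment may give about 4 counts. FPKM values were used as deposited by the authors.

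Groups follow the labels, and no library was left out. Counts were tested with edgeR 4.0.16 in R 4.3.3 by its quasi-likelihood test with TMM scaling, the filterByExpr filter and no covariate, and p-values were adjusted by Benjamini-Hochberg over 20428 genes, with a threshold of 0.05. SEs were derived from the log2 fold change and its F statistic, and intervals are at 95%. Scripts were tested on simulated data. Alternatives were limma 3.58.1, DESeq2 1.42.0, other filters, scalings and pseudocounts, a replicate block and fits without each library. Levels per exon length were added after the data were seen. The members and lists were chosen with earlier results of these data known. Named genes were all members, the 2 with the smallest p of each further list, the further subunits with a mean of at least 1 FPKM and the 3 nearest profiles of the 2 most variable members. A few genes selected in this way are not reported here. Figures were drawn with matplotlib 3.10.9.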

Additional observations from a re-analysis of the deposited data

How the results depend on the processing

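No subunit passed the adjusted threshold in any of the 16 other fits. The log2 fold change kept its sign in all 16 for Gabra2 and Gabrb2, although that of Gabrb2 ranged from 0.017 to 0.31 and that of Gabra2 from -0.28 to -0.0084. The count of 0 called genes was 3 in DESeq2 and ranged from 0 to 3 without single libraries, with 3 without BBP library 1 and 1 without corn oil library 2. The count at an unadjusted p under 0.05 was 685 of 20428 genes in the reported fit. It was 392 to 396 of 13268 or 16837 genes in the filtered limma fits and 1068 of 31838 in limma without a filter. Without single libraries it ranged from 393 of 21155 genes, without corn oil library 1, to 1530 of 21088, without BBP library 3. It was 1475 of 21072 without BBP library 1.

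Gabra5, at 0.02, turned to -0.10 in limma with a pseudocount of 1, with and without the filter, to -0.11 with a pseudocount of 0.1 and to -0.14 on TPM; the cause was not tested. Gabrg3 turned to -0.0015 on TPM. Without single libraries the log2 fold change ranged from -0.22 to 0.34 for Gabra5, from -0.11 to 0.70 for Gabrd, from -0.27 to 0.14 for Gabra3, from -0.15 to 0.010 for Gabra4 and from -0.16 to 0.22 for Gabrb1. It ranged from -1.34 to 0.13 for Gabrq and from -0.10 to 0.064 for Slc12a5. The synaptic minus extrasynaptic difference of -0.15 ranged from -0.22 to -0.07 over its 8 alternatives.

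Replicate numbers were not used to pair libraries, since deviations of libraries with the same number correlated at -0.08, 0.08 and -0.10. With the replicate block, 0 genes passed, 494 had an unadjusted p under 0.05, and Gabra5 was at -0.078.

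With 3 libraries a group, the intervals of Gabra5 and Gabrd were wide, and group differences inside them are compatible with the fits. Without BBP library 1, which stands apart in regional markers, the SE was lower, at 0.11 for Gabra5 and 0.14 for Gabrd.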

Other observations

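Several other genes of the inhibitory synapse, chosen after their values were seen, stood apart in a single BBP library. Insyn2a, which encodes a partner of the inhibitory scaffold, had 0.216 FPKM in BBP library 1 and 0.808 and 1.15 FPKM in BBP libraries 2 and 3, against 0.998 to 1.08 FPKM in corn oil. Igsf9b, a cell adhesion gene of inhibitory synapses, had 6.42 FPKM in BBP library 1 and 2.27 and 3.24 FPKM in BBP libraries 2 and 3, against 2.44 to 3.24 FPKM in corn oil. Shisa7, which encodes an auxiliary protein of GABA-A receptors, had 50.5 FPKM in BBP library 2 and 24.4 and 32.8 FPKM in BBP libraries 1 and 3, against 29.6 to 30.4 FPKM in corn oil. Of all tested genes, BBP library 1 was the highest for 24.3% and the lowest for 17.9%, and BBP library 2 was the highest for 16.2%. None of the 3 genes named here passed edgeR's adjusted threshold, and no explanation was tested.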
